A study of Mus musculus with 6 samples.

Results

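Spermatogonial differentiation is the step at which the stem and progenitor spermatogonia of the testis leave self-renewal and start toward meiosis. It was examined here through 7 mouse genes, Sohlh1, Sohlh2, Dmrtb1, Stra8, Rhox13, Prss50 and Kit. These genes were chosen by name, but with earlier results of these data known. They are covered by 10 probes, out of 19057 genes with a named probe and 45281 probes in all. The series measured total RNA on 1-colour Illumina bead arrays in 3 samples of spermatogonial stem cells (SSC, strain given as C57BL/6) and 3 samples of embryonic stem cells (ESC, strain given as R1/E), without any treatment or allele named for either group. Cell type and strain changed together, so their effects cannot be told apart. The isolation or culture of the cells, the age and sex of the animals and any pooling are not stated in the labels. Nothing says that the numbered replicates came from separate cultures or animals, and the p-values then reflect the spread among these 6 samples alone, which could be technical.

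As background, retinoic acid drives spermatogonia into differentiation in the mouse testis. Differentiating spermatogonia display KIT, a receptor tyrosine kinase whose ligand, KITL, comes from Sertoli cells. SOHLH1 and SOHLH2 are germ cell transcription factors of the basic helix-loop-helix kind, which bind short motifs called E-boxes, and in mice both are needed for spermatogonia to differentiate and to produce KIT. Stra8 is switched on by retinoic acid and is needed for entry into meiosis. Kit is also known in mouse embryonic stem cells, mast cells, melanocytes and Leydig cells.

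Of the 10 probes, 9 were kept for analysis, having 3 or more arrays with a detection p-value under 0.01, and all 7 genes had at least 1 kept probe. Values are background-corrected, quantile-normalized log2 intensities, and a level on this scale is compared only between arrays for 1 probe, never between probes. A gene was called when its adjusted p was under 0.05 in limma with Benjamini-Hochberg adjustment over all 17435 kept probes, and it is represented by its brightest kept probe. Detection of a gene is read from that probe, or from its brightest probe where none was kept. Detection on 0 arrays therefore describes 1 probe and does not show that the RNA was absent. Differences are SSC minus ESC.

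Markers of both labelled cell types were checked, and their levels were summed over the brightest probe of each marker as normalized linear intensity. All 10 markers of pluripotent cells were called lower in SSC, where the sum was 2038 to 2224, against 18604 to 19068 in ESC. Of 10 germ cell markers, 9 were measured and all 9 were called higher in SSC. The sum was 6740 to 7258 in SSC and 1030 to 1103 in ESC. Among all genes measured, 37.9% were called higher and 36.5% lower. Detection was on 0 ESC arrays for 2 of the germ cell markers and on 0 SSC arrays for 3 of the pluripotent cell markers. The number of probes detected per array was 16505 to 17211 in SSC and 15242 to 15613 in ESC, and arrays of 1 group correlated at 0.989 to 0.993 while arrays of different groups correlated at 0.784 to 0.795. The small number of arrays limits the precision of every value.

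Of the 7 genes, 6 were called higher in SSC, 0 were called lower (0 also at an unadjusted p under 0.05 in limma) and 1, Kit, was not called. Of the 6, Sohlh2 and Dmrtb1 were detected on 0 ESC arrays and so passed the detection filter through SSC alone. Among all 10024 genes measured, 74.4% were called, 37.9% higher and 36.5% lower, so a call in either direction was common in this comparison. The median difference of the 7 genes was 1.75 on the log2 scale, against 0.0036 for all genes. The called difference was at least 2-fold for 5 of the 7 genes, and 17.5% of all genes were called at that size or above in this direction. The SSC and ESC values did not overlap for 6 of the 7 genes, each time with SSC above. Groups did not overlap for 76.9% of all genes, with SSC above for 39.1%. Fewer cells of a type and less RNA per cell cannot be told apart in these bulk samples.

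**Figure D1:**
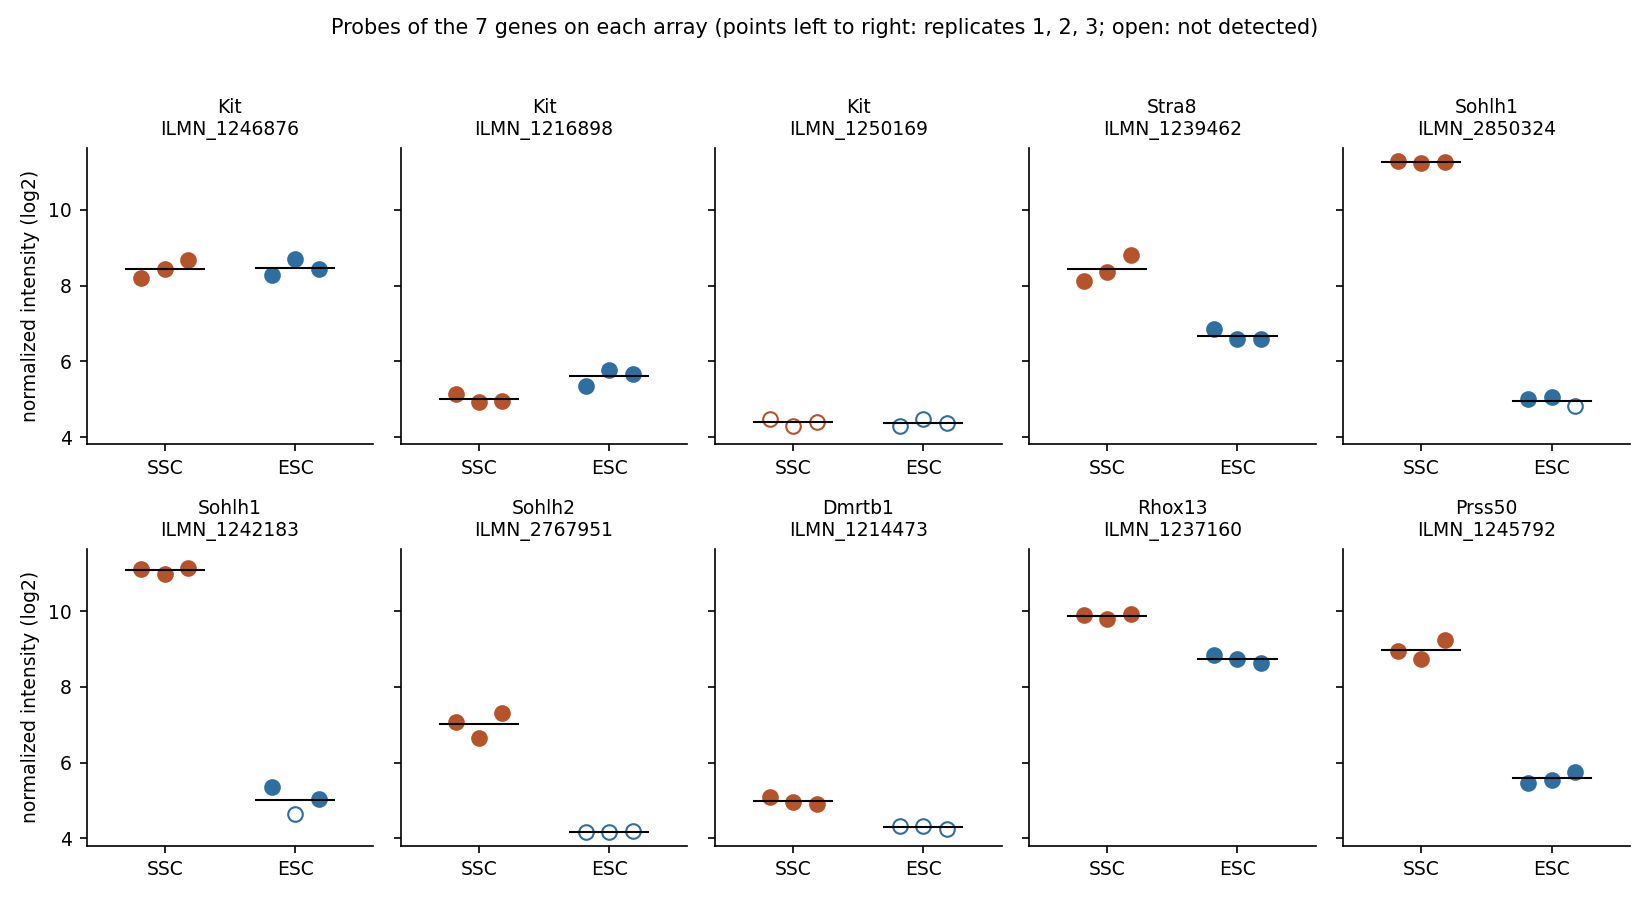
Normalized log2 intensity (vertical axis) of all 10 probes of the 7 genes on each array, with SSC left and ESC right in each panel. Points are replicates, lines are group means, and open points mark arrays whose detection p was 0.01 or more. The Sohlh1, Prss50, Sohlh2, Stra8, Rhox13 and Dmrtb1 points of SSC lie above those of ESC, and the brightest Kit probe overlaps.

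The sequence just before the transcription start is shown for Sohlh1, Sohlh2, Stra8 and Kit. The first 2 were chosen because they encode E-box-binding factors, and Stra8 because it responds to retinoic acid. Kit was chosen as a known SOHLH target whose brightest probe was not called. Each line gives 250 bases from RefSeq, assembly GRCm38.p6, 5′ to 3′ on the gene's strand. Capitals mark matches on either strand to the E-box CANNTG and to AGGTCA or AGTTCA, motifs of retinoic acid receptors. Where RefSeq lists more than 1 start, as it does for Kit, the first one listed was used.
Sohlh1, chr2:25847249-25847498, - strand: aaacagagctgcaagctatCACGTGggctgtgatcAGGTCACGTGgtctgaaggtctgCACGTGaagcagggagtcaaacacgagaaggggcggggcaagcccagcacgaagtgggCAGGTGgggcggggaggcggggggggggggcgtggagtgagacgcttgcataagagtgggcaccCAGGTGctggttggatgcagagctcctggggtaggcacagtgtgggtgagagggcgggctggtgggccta
Sohlh2, chr3:55181794-55182043, + strand: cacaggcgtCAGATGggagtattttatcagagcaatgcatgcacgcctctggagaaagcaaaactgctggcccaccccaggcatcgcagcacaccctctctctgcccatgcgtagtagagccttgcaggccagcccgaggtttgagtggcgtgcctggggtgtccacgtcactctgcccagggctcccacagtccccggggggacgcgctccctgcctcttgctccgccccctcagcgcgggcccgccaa
Stra8, chr6:34920698-34920947, + strand: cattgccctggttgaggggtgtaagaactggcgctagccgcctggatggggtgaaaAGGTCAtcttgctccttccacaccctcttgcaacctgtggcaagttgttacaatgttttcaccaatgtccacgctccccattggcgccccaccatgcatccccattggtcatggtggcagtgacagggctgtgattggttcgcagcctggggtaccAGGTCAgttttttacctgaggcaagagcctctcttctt
Kit, chr5:75574737-75574986, + strand: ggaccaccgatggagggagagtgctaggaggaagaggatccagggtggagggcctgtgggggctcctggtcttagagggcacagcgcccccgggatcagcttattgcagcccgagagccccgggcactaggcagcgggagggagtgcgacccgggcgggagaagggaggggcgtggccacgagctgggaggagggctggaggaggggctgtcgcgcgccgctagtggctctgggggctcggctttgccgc

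The Sohlh1 window held 5 E-boxes, of which 3 read CACGTG, at 231, 211 and 192 bases before the start. E-boxes of any kind were present in 66.0% of the 27025 promoter windows of the same length, with a median of 1 per window, and CACGTG was present in 6.0%. The Sohlh1 window also held AGGTCA at 215 bases before the start, where it overlaps the middle CACGTG. The Sohlh2 window held 1 E-box, CAGATG, and neither receptor motif. The Stra8 window held AGGTCA at 194 and at 38 bases before the start and no E-box, and 13.8% of all windows held AGGTCA. The Kit window held 0 matches to these motifs, which says only that the letters are not in these 250 bases. The GC content was 70.8% for Kit, 75.6% for Dmrtb1, 64.8% for Sohlh2, 64.4% for Sohlh1, 63.6% for Prss50, 54.8% for Stra8 and 45.2% for Rhox13, against a median of 52.0% and an upper quartile of 60.8% over all windows. Among the other genes, the Dmrtb1 window held 3 E-boxes, that of Rhox13 held 1 and that of Prss50 held 0. A match describes the sequence and does not show a bound site.

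**Figure D2:**
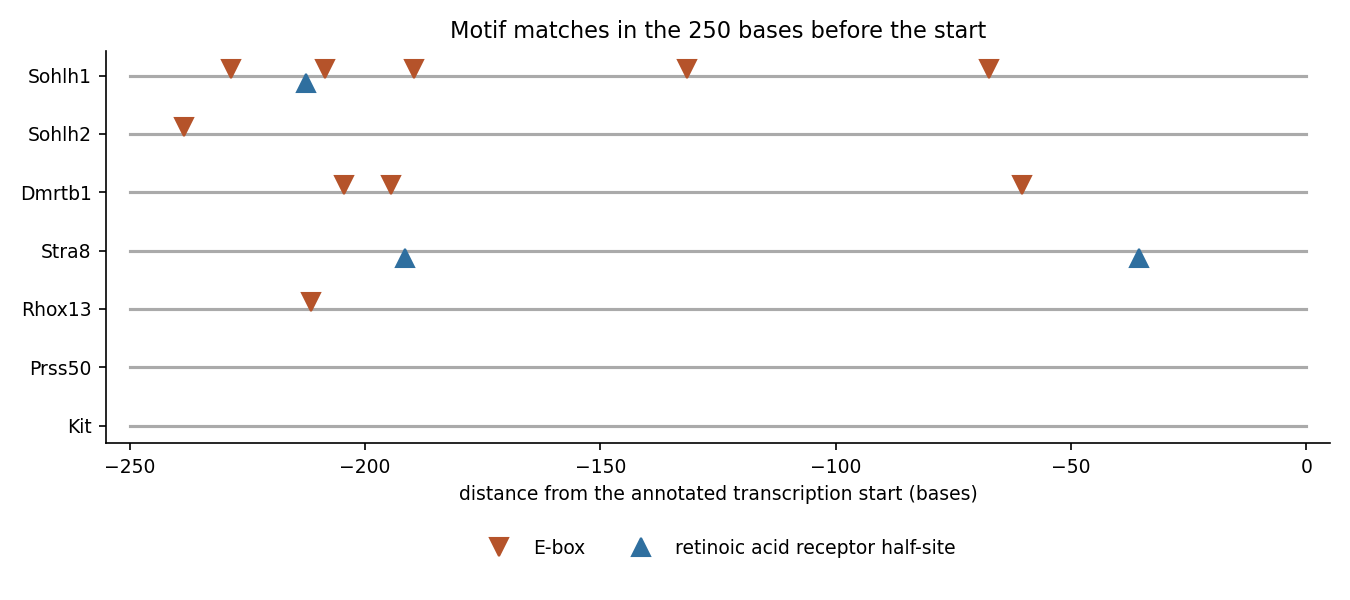
Positions of motif matches in the 250 bases before the annotated start of each of the 7 genes, with distance from the start in bases on the horizontal axis. Downward triangles are E-boxes and upward triangles are AGGTCA or AGTTCA matches. Sohlh1 has 5 E-boxes, Stra8 has 2 AGGTCA matches, and Kit and Prss50 have none.

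Sohlh1 showed the widest separation of the 7 genes. Its brightest probe, ILMN_2850324, read 11.29, 11.24 and 11.27 on the SSC arrays, against 5.02, 5.06 and 4.81 on the ESC arrays. The 3 SSC values lie within a few hundredths of each other and far above all ESC values. The group means were 11.26 ± 0.028 in SSC and 4.97 ± 0.13 in ESC (SD, n = 3 each), a difference of 6.30 ± 0.12 (SE; adjusted p = 4.18e-13 in limma). The ESC signal was detected on 2 of 3 arrays, and with the undetected array set at the lowest detected signal this probe was at least 75.2-fold higher in SSC. That bound allows for the undetected array and not for the spread among arrays. The 95% interval of the difference was 6.04 to 6.55, and the difference was 5.82 without ESC replicate 2. With an offset of 50 it was 5.255, and without background correction it was 4.43. A second probe, ILMN_1242183, stands on the same RefSeq transcript and read 11.12, 10.97 and 11.14 in SSC, against 5.36, 4.65 and 5.04 in ESC. Its difference was 6.06 ± 0.16 (adjusted p = 4.51e-12 in limma), where 36.1% of all kept probes were called higher. By the same bound this second probe was at least 61.1-fold higher in SSC, and 2 of 3 ESC arrays detected it. In unnormalized brightness, before any background was removed, the brightest probe read 2386, 2450 and 2256 in SSC and 117, 118 and 112 in ESC.

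Sohlh2, which encodes the partner of SOHLH1, was detected on all SSC arrays and on 0 ESC arrays. Its probe read 7.09, 6.65 and 7.31 in SSC, against 4.17, 4.17 and 4.20 in ESC. The SSC arrays spread more widely than for Sohlh1, and the lowest SSC array still stood well above every ESC array. Against the lowest detected signal on the ESC arrays, Sohlh2 was at least 4.04-fold higher in SSC (adjusted p = 3.28e-09 in limma, from the fitted difference of 2.84 ± 0.15, SE). That fitted difference was 1.19 without background correction and 1.65 with a larger offset of 50. Unnormalized brightness was 235, 210 and 258 in SSC and 95.2, 95.7 and 96.7 in ESC.

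Dmrtb1, also known as Dmrt6, encodes a DM domain transcription factor that in mouse testis acts at the passage of spermatogonia from mitosis to meiosis. Its signal was close to background. The probe read 5.11, 4.96 and 4.92 in SSC, where it was detected on all 3 arrays, against 4.34, 4.33 and 4.24 in ESC, where it was detected on 0. The groups did not overlap, and the fitted difference was 0.69 ± 0.12 (SE; adjusted p = 1.19e-04 in limma). No fold is given, because the SSC mean did not exceed the lowest detected signal on the ESC arrays. The fitted difference was 0.21 without background correction (adjusted p = 0.00517 in limma) and 0.30 with an offset of 50.

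Stra8 was higher in SSC and was detected on all 6 arrays, ESC included. It read 8.13, 8.36 and 8.82 in SSC, against 6.85, 6.61 and 6.59 in ESC. All SSC values exceeded all ESC values, and SSC replicate 3 was the highest. The means were 8.44 ± 0.35 in SSC and 6.68 ± 0.14 in ESC (SD, n = 3 each). The difference of 1.75 ± 0.16 (SE) corresponds to 3.37-fold (adjusted p = 6.71e-07 in limma). In unnormalized brightness Stra8 read 381, 468 and 544 in SSC, against 189, 172 and 167 in ESC.

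Rhox13 is an X-linked homeobox gene of the Rhox cluster, whose protein is known in differentiating mouse spermatogonia. It was bright in both cell types and detected on all 6 arrays. The probe read 9.91, 9.78 and 9.94 in SSC, against 8.86, 8.75 and 8.62 in ESC. The groups were tight and did not overlap, with means of 9.88 ± 0.082 in SSC and 8.74 ± 0.12 in ESC (SD, n = 3 each). The difference was 1.13 ± 0.12 (SE), or 2.19-fold (adjusted p = 1.92e-06 in limma). Without background correction it was 0.99, which falls just under 2-fold.

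Prss50, also known as Tsp50, encodes a testis protein of the serine protease family. It read 8.95, 8.74 and 9.25 in SSC, against 5.48, 5.53 and 5.77 in ESC, and all 6 arrays detected it. The lowest SSC array stood far above the highest ESC array. The means were 8.98 ± 0.26 in SSC and 5.59 ± 0.15 in ESC (SD, n = 3 each), and the difference of 3.39 ± 0.15 (SE) corresponds to 10.5-fold (adjusted p = 3.80e-10 in limma). The difference was 2.13 without background correction, and the authors' processed table gave the same value. Unnormalized brightness was 590, 573 and 700 in SSC and 127, 129 and 133 in ESC.

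Kit gave different answers from its 3 probes. The brightest, ILMN_1246876, which is annotated to the RefSeq transcript, read 8.20, 8.44 and 8.67 in SSC, against 8.29, 8.70 and 8.43 in ESC. The ranges overlap almost completely. The difference was −0.041 ± 0.15 (SE), with a 95% interval of −0.37 to 0.28, and it was not called (adjusted p = 0.812 in limma). This interval bounds the difference without showing that the groups are equal. Unnormalized brightness was 395, 486 and 501 in SSC and 383, 479 and 396 in ESC.

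The second Kit probe, ILMN_1216898, is annotated to a cDNA record and not to a RefSeq transcript, and its signal lay near background on all 6 arrays, all of which detected it. It read 5.15, 4.93 and 4.96 in SSC, against 5.35, 5.79 and 5.67 in ESC. Here every SSC value was below every ESC value, with a difference of −0.59 ± 0.14 (SE; adjusted p = 0.00172 in limma), and 37.5% of all kept probes were called lower. This call was lost under scaling on array medians (−0.31, adjusted p = 0.0538 in limma). The difference was −0.19 without background correction (adjusted p = 0.0191 in limma) and also −0.19 in the authors' processed table (adjusted p = 0.0192). The third probe, ILMN_1250169, annotated to another cDNA record, was detected on 0 of 6 arrays, at 4.30 to 4.47 in SSC and 4.29 to 4.47 in ESC. The gap between the brightest and the second probe was 3.05, 3.51 and 3.70 in SSC, against 2.94, 2.92 and 2.76 in ESC. These gaps did not overlap, and the exact two-sided permutation test gave p = 0.1, the smallest it can give with 3 arrays a group, so it could not reach 0.05. With the mean of both kept probes in place of the brightest, Kit was called lower (−0.32, adjusted p = 0.0345 in limma).

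**Figure D3:**
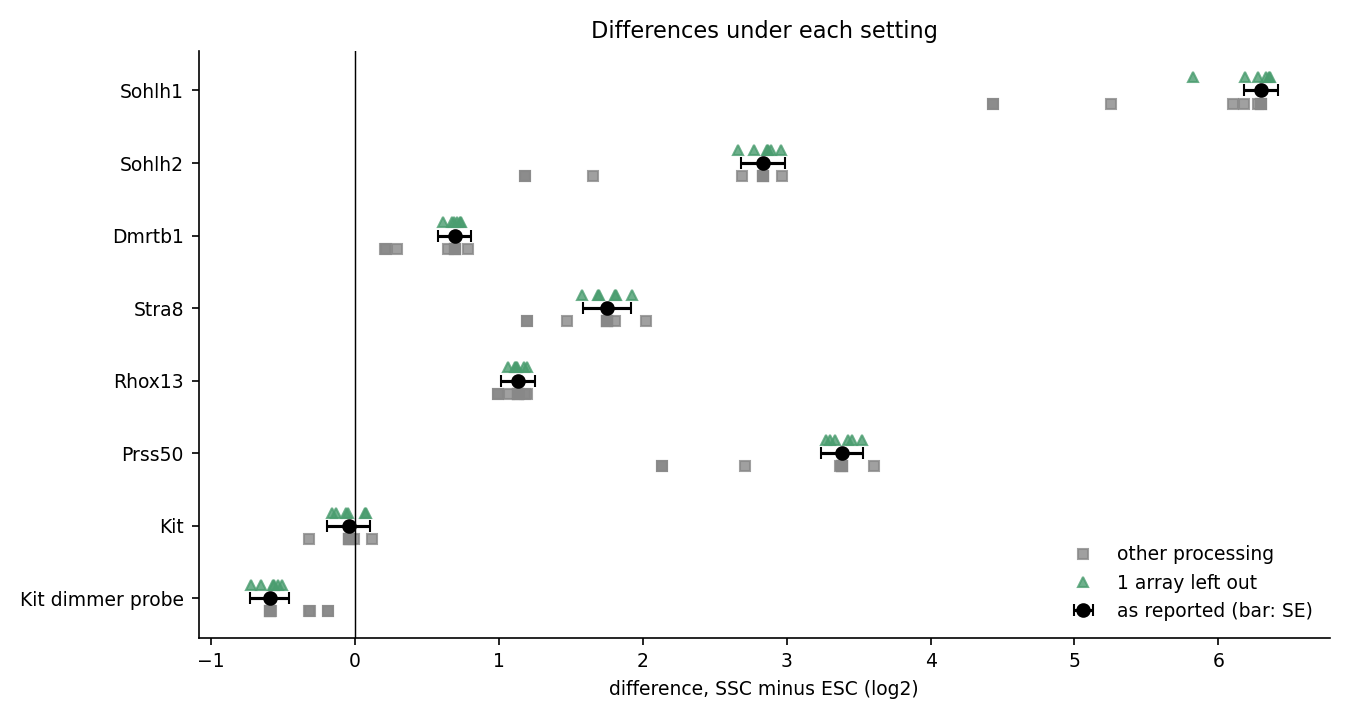
Difference SSC minus ESC on the log2 scale (horizontal axis) for each of the 7 genes and for the dimmer kept Kit probe. Black circles with SE bars are the values as reported, grey squares are other processing settings and triangles leave out 1 array. Sohlh1, Sohlh2, Dmrtb1, Stra8, Rhox13 and Prss50 stay above 0 in every setting, while Kit lies on both sides of 0.

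Within the SSC group the genes differed in how far the arrays spread. Sohlh1 had an SD of 0.028 on its brightest probe and of 0.091 on its second. Around the SSC mean Stra8 ranged from −0.31 to 0.38, Sohlh2 from −0.36 to 0.29, Prss50 from −0.24 to 0.27 and Kit from −0.23 to 0.23. SSC replicate 3 was the highest SSC array for 5 of the 7 genes, Kit, Stra8, Sohlh2, Rhox13 and Prss50. Over all genes measured, that array was the highest SSC array for 35.2%. Kit and Stra8 had their lowest SSC value on replicate 1, and Sohlh1, Sohlh2, Rhox13 and Prss50 on replicate 2. Without SSC replicate 3, all 6 calls toward SSC stayed.

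The genes whose profiles lay closest to Kit, Stra8 and Sohlh1 were found by the root mean square difference of mean-centred log2 values over the 6 arrays, among 9754 genes with names. Closest to Kit were Mbp (0.068), Ankrd23 (0.076) and Calr3 (0.079), with differences of −0.14, −0.077 and 0.0053. Closest to Stra8 were Evl (0.094), Kif21a (0.106) and Ift122 (0.111), whose differences toward SSC were 1.64, 1.80 and 1.75. Closest to Sohlh1 were Phf20l1 (0.126), Tbccd1 (0.149) and Kctd14 (0.152), with differences of 6.43, 6.40 and 6.31. Since the 6 arrays fall into 2 groups, this measure rests mainly on the group difference for Stra8 and Sohlh1. For Kit, whose difference was −0.041, it rests mainly on the scatter among arrays within the groups, and a shared profile was not tested.

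Among 23 other KIT signalling genes with a probe, 17 were measured, 5 were called higher, 7 were lower and 5 did not pass. The called share was 70.6%, with 29.4% higher and 41.2% lower, against 74.4%, 37.9% and 36.5% of all genes measured. Their median was −0.092, or −0.066 when undetected genes were placed at their bound. Under scaling on array medians, which moves the median of all genes to 0.19, the fitted median turned to 0.11. Without SSC replicate 2, and also without background correction, 3 were called higher in place of 5. Kitl, the ligand, was detected on 0 of 6 arrays. Foxo3, a transcription factor restrained by AKT, rose by 1.24 ± 0.13 (SE) and Ptpn11, the SHP2 phosphatase, by 0.81 ± 0.11, although its lowest kept probe was at 0.30. The phosphatase gene Ptpn6, which dampens KIT signals in blood cells, was detected on 0 SSC arrays and was at least 9.70-fold lower, with its other kept probe at −1.65 on the log2 scale. The adaptor Gab1 was lower by a difference of −1.17 ± 0.13. Of 7 related receptors, 3 were measured and 1 was called, Pdgfra at 3.51 ± 0.13, which is also a listed fibroblast marker, while 2 were called without ESC replicate 3. The adjusted p of these 5 genes was at most 2.54e-05 in limma.

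Of 18 genes with a probe listed for retinoic acid, 13 were measured, 7 were called higher, 3 were lower and 3 did not pass. Among those that did not pass was Rec8, which is also counted with the meiotic prophase genes below. The called share was 76.9%, with 53.8% higher and 23.1% lower, against 74.4%, 37.9% and 36.5% of all genes, and 5 of the 7 higher genes were detected on 0 ESC arrays. The median of the 13 was 0.42, and it was 0.35 when undetected genes were placed at their bound. Aldh1a1, which makes retinoic acid, was at least 30.8-fold higher in SSC and Stra6, a retinol transporter, at least 4.85-fold higher, and 0 ESC arrays detected either. The receptor genes Rarg (at least 3.20-fold, detected on 2 of 3 SSC arrays) and Rxra (at least 2.13-fold, detected on 1 of 3) were lower in SSC. The adjusted p of these 4 genes was at most 1.38e-05 in limma. Of the breakdown enzyme genes with a probe, Cyp26b1 was called higher, at least 1.41-fold (adjusted p = 5.71e-07 in limma) with 0 ESC arrays detecting it, and Cyp26a1 was detected on 0 of 6 arrays.

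Of 20 other genes of differentiating spermatogonia with a probe, 14 were measured, 13 were called higher and 1 lower, with a median of 1.86. This median did not move when undetected genes were placed at their bound. The other 6, Dmrt1, Dnmt3a, Fthl17a, Pramel3, Esx1 and Ccna2, were detected on 0 arrays by their brightest probes, which does not show that their RNA was absent. Of the 13 called higher, 6 were detected on 0 ESC arrays and so passed the detection filter through SSC alone, and the share of all genes called higher was 37.9%. The germ cell surface protein gene Tex101 was at least 11.6-fold higher, with 0 ESC arrays detecting it. Ccnd2, a cyclin gene of this list, was higher by 3.90 ± 0.13, with its kept probes at 2.29 to 3.90. The de novo methyltransferase gene Dnmt3b was lower (−0.60 ± 0.11). Undifferentiated spermatogonia genes stood beside them in the same samples: of 20 with a probe, 18 were measured, 13 were called higher, 4 of them detected on 0 ESC arrays, and 3 lower. Gfra1, Zbtb16 and Nanos2 among them were also counted with the germ cell markers above. The median of this list was 1.44, and it was 1.05 when undetected genes were placed at their bound. Ret, the GDNF co-receptor, was at least 12.9-fold higher, with 0 ESC arrays detecting it, and Taf4b was higher by 3.63 ± 0.14, while Utf1 (−1.57 ± 0.12) and Lin28a (−0.80 ± 0.11, with its kept probes at −2.15 to −0.80) were lower. The other kept probe of Ret was at 2.40. The adjusted p of the 7 genes named here was at most 3.21e-04 in limma. Membership of both lists was by name, and genes such as Ccnd2, Uchl1 and Sycp1 of the differentiation list need not be exclusive to that stage. A test of the difference between the 2 lists was not made.

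Meiotic prophase genes, which follow Stra8 in the course of germ cell development, were called higher for 12 of 14 measured and lower for 0. The other 2 did not pass. The median was 1.42, and it was 1.20 when undetected genes were placed at their bound. Of the 12, 5 were detected on 0 ESC arrays and so passed the detection filter through SSC alone, beside the 37.9% of all genes called higher. The other 6 of 20 with a probe, among them Sycp3 and Dmc1, were detected on 0 arrays. Spo11, which cuts DNA to start meiotic recombination, exceeded ESC at least 7.17-fold by its brightest probe (other kept probe 1.35 on the log2 scale), and Sycp2 of the synaptonemal complex was at least 5.21-fold higher. In the mouse ovary SOHLH1 and SOHLH2 act ahead of oocyte genes, and of 10 listed oocyte genes with a probe, 5 were measured, 2 were called higher, 2 lower and 1 not called. Figla was at least 1.78-fold higher and the bound of Lhx8 came to 1.00-fold, with 0 ESC arrays detecting either. Pou5f1 (−1.21 ± 0.12), which is also 1 of the 10 pluripotent cell markers, was lower, as was Zp3, at least 1.86-fold and detected on 2 of 3 SSC arrays. The adjusted p of these 6 genes was at most 2.07e-04 in limma.

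Of 9 other DM domain genes with a probe, relatives of Dmrtb1, 6 were measured, 5 were called higher and 1 lower. Of the 5, 2 were detected on 0 ESC arrays and so passed the detection filter through SSC alone. Among all genes measured, 74.4% were called, 37.9% higher and 36.5% lower. Dmrtc1a exceeded ESC at least 10.01-fold by its brightest probe (kept probes 1.74 to 3.98 on the log2 scale), and Dmrta1 was at least 2.88-fold higher. Dmrta2 was lower, at least 1.32-fold and with 2 of 3 SSC arrays detecting it (adjusted p = 0.0200 in limma), a call lost in 8 alternative settings, among them without SSC replicate 2 (−0.34), without SSC replicate 3 (−0.33) and without ESC replicate 2 (−0.40). Dmrt1, known in the same spermatogonia, was detected on 0 arrays. Of 18 other testis serine protease genes with a probe, listed beside Prss50, 14 were detected on 0 arrays, 2 were measured and 0 were called in limma, or at an unadjusted p under 0.05. Both were called higher under scaling on array medians, and 1 was without SSC replicate 1 or without ESC replicate 1.

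**Figure D4:**
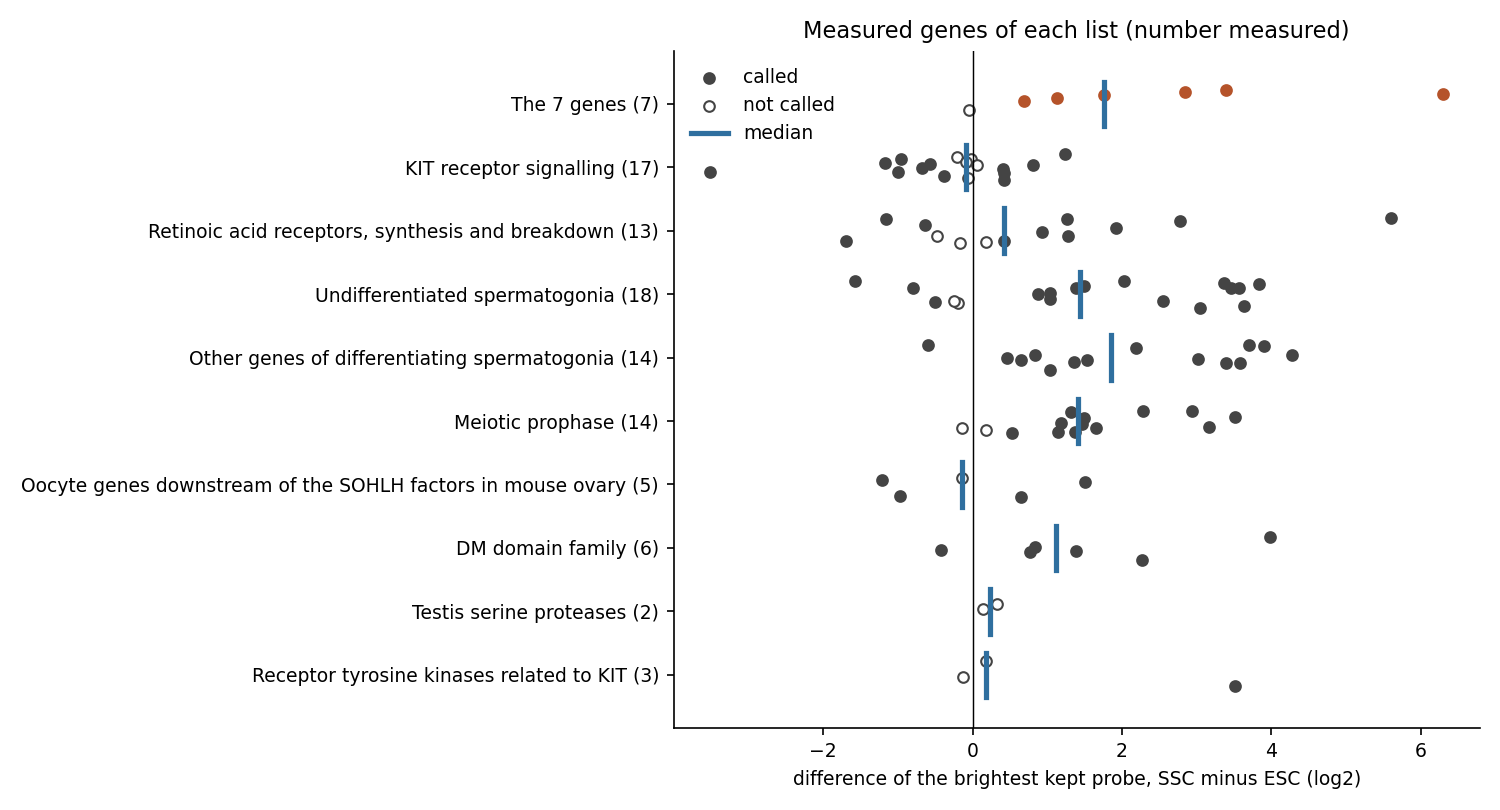
Difference SSC minus ESC on the log2 scale (horizontal axis) for the measured genes of each list, as fitted for the brightest kept probe and without bounds. Filled points were called, open points were not, bars are list medians and the vertical position within a list is arbitrary. The 7 genes have a median of 1.75, the other genes of differentiating spermatogonia 1.86 and the KIT signalling genes −0.092.

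Markers of other cell types also moved in the same samples, where 37.9% of all genes measured were called higher and 36.5% lower. All 8 Sertoli cell markers with a probe were measured, 7 were called higher and 1 lower, and their summed level was 2919 to 3162 in SSC, against 245 to 258 in ESC, with 0 markers undetected throughout. Of 10 fibroblast and peritubular myoid markers, all measured, 8 were called higher, 1 lower and 1 not called, at 7304 to 8205 in SSC and 3091 to 3290 in ESC, again with 0 undetected throughout. Of 7 Leydig cell markers with a probe, 4 were measured, 3 higher and 1 lower, at 610 to 785 in SSC and 325 to 331 in ESC, and Star, Hsd3b1 and Hsd3b6 were detected on 0 arrays. Of 8 mast cell markers, 3 were measured and all 3 were called higher, at 524 to 789 in SSC and 179 to 193 in ESC, while Fcer1a and Ms4a2 were detected on 0 arrays. Of these 3, Hdc was higher by 3.35 on the log2 scale, Tpsab1 at least 1.45-fold and Cpa3 at least 1.02-fold. The sums include probes that were not detected. Of 5 melanocyte markers, 3 were measured, 1 higher and 2 lower, at 150 to 189 in SSC and 247 to 276 in ESC. Tyr and Tyrp1 were detected on 0 arrays. Some markers called higher were detected on 0 ESC arrays and so passed the detection filter through SSC alone. These were 4 Sertoli, 5 fibroblast and myoid, 2 Leydig, 2 mast cell and 1 melanocyte markers. Of those called lower, 1 fibroblast and myoid marker and 1 melanocyte marker were detected on 0 SSC arrays. The part of these cells in the levels of Kit or of the other 6 genes was not tested.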

How the data were processed

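The deposited table of intensity values holds the mean brightness of each probe per array on a linear scale, not normalized and with background included, together with the deposited detection p-value of each probe. Per the submitters' processing notes GenomeStudio was used, with no version given. A further table of processed intensity values by the authors served as an alternative, and its making is not described in the sources used. Array values were corrected by normexp (parameters taken from the detection p-values, offset 16), quantile normalized and log2 transformed, then fitted with lmFit and eBayes without covariates (limma 3.58.1, R 4.3.3). The fit was tested on simulated data. Folds given as "at least" set a group's undetected arrays at the lowest detected signal of each array and hold only under this background correction and normalization. They take no account of the spread among arrays.

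Probes were named through the platform annotation: 34885 had 1 gene symbol, 18 several and 10378 are unnamed here, and 34807 matched RefSeq by gene identifier. The genes and lists were chosen with earlier results of these data known. The rule for named genes takes all 7 genes, up to 2 called genes per direction and list, and the 3 closest profiles to Kit, Stra8 and Sohlh1, passing over clone names. Genes named as detected on 0 arrays, and Cyp26b1, were added after their values were seen. Probe and protein sequences were not used here. Alternatives were other background corrections, normalizations, detection filters, probe summaries and priors, the replicate number as a block, the authors' table, and each sample left out in turn.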

Additional observations from a re-analysis of the deposited data

How the results depend on the processing

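The 6 calls toward SSC kept their direction and significance in every alternative that measured the gene. Sohlh2 and Dmrtb1 were detected on 0 ESC arrays, so for them these alternatives compared SSC with undetected ESC signal. For Dmrtb1 the SSC mean did not exceed the lowest detected signal on the ESC arrays. Detection on all 6 arrays left 4 of the 7 genes and 3 such calls, because that filter removes Sohlh1, Sohlh2 and Dmrtb1, which were not detected on all ESC arrays. The count called lower became 1 with the mean of all kept probes, through Kit. The difference of the brightest Kit probe turned to 0.12 under scaling on array medians, a setting that moves the median of all genes to 0.19, to 0.077 without SSC replicate 1 and to 0.072 without ESC replicate 2, and it was not called in any of these. Over single left-out arrays it ran from −0.16 to 0.077. Both the uncorrected values and the authors' processed table gave 4 of the 7 genes called at least 2-fold higher, against 5 here. These 2 settings gave nearly the same difference for each of the 7 genes and so do not count as separate checks. Scaling on array medians put 59.7% of all calls toward SSC, against 50.9% here, and 40.3% of all genes were called without a detection filter, against 74.4%.

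With 1 array left out, the count of the 7 genes called higher stayed at 6, that called lower at 0, and 70.2% to 73.0% of all genes were called. Under detection on all 6 arrays the counts called higher fell to 7 each for the lists of undifferentiated spermatogonia, other differentiation genes and meiotic prophase, and to 2 for retinoic acid genes. Other list counts moved by at most 3 genes. Without background correction, 18 of the 25 named list genes and 8 of 9 list medians were smaller by over 1.5 times, and the counts from the authors' table were 18 and 8. The folds given as bounds hold only with background correction. Same-numbered samples did not deviate together (correlations −0.14, −0.068 and 0.030). Samples with different numbers gave −0.12 to 0.17. With 3 arrays a group this cannot show whether the numbers pair the samples. With the replicate block, 6 genes were called higher, 0 lower and 73.3% of all genes were called. Settings for lists, named list genes and the 2-fold count were chosen after seeing the data. Low signal over background limits Dmrtb1 and the dimmer Kit probe.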
